A study of Macaca mulatta with 4 samples.

Results

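Reelin and its receptor pathway were read here as 4 genes, the ligand RELN, the receptors VLDLR and LRP8, and the adaptor DAB1, which are 4 of the 30807 gene rows in the deposited count tables. The members were taken by their gene symbols, each of which names a single row, and their molecules were counted in barcodes with at least 500 detected genes. Nuclei came from the cerebellum of 4 rhesus macaque fetuses, 1 fetus per single-nucleus RNA-seq library, with 2 control fetuses (no intervention; a female and a male, both at 130 days of gestation) and 2 fetuses given 1 mg of lipopolysaccharide into the amniotic fluid (LPS; a female at 131 days and a male at 133 days). The injection is a model of chorioamnionitis, the mothers were time-mated, and the tissue was a frozen left cerebellar hemisphere with the left side of its vermis. The comparisons asked where in the cerebellum each gene was detected, how its level changed along the granule cell lineage, and whether it differed between LPS and control.

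Reelin is a large secreted glycoprotein that guides the placement of neurons in layered brain tissue. It binds the lipoprotein receptors VLDLR and LRP8 (also named ApoER2) on the receiving cell, and the clustered receptors lead Src family kinases to phosphorylate the cytoplasmic adaptor DAB1, which passes the signal on to the cytoskeleton and to cell adhesion before it is degraded. In the developing cerebellum granule cells are the classical source of reelin and Purkinje cells the classical responders, and loss of the ligand, of both receptors together or of the adaptor leaves Purkinje cells misplaced in mice.

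After quality filtering, 32565 nuclei remained, between 6890 and 9250 per library, with median depths of 1882 to 4508 unique molecular identifiers (UMIs). The 2 female libraries were deeper than the 2 male libraries (medians of 4508 and 4063 against 1882 and 2308.5 UMIs per nucleus) and held a higher mean mitochondrial share (0.264% and 0.212% against 0.0214% and 0.0318%), so sex cannot be told apart from these differences between libraries. The LPS male library kept 38.7% of its UMIs in nuclei, against 58.7% to 73.9% in the other 3, and it supplied 2110 of the 3313 nuclei that were left without a class name. Pairs of libraries shared 16 to 21 cell barcodes, where 7.91 to 11.7 were expected by chance. Nuclei were grouped into 13 classes without use of the 4 genes or of the other pathway genes, and class names mean that the nuclei resembled that cell type by its markers. Of the 11 Purkinje markers with a row, 10 were higher in the Purkinje class than in the other classes in all 4 libraries, and 12 of 13 markers did so in the granule lineage. The same marker lists gave the classes their names, so these counts describe the classes and are not a separate check. A further 39 choroid or ependymal nuclei were too few for a comparison. Levels are given as CPM, the UMIs of a gene scaled to 1e6 UMIs of a class, with UMIs summed over its nuclei in a library, and mean ± SD is over libraries. CPM values are not corrected for gene length and are compared within a gene only.

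**Figure D1:**
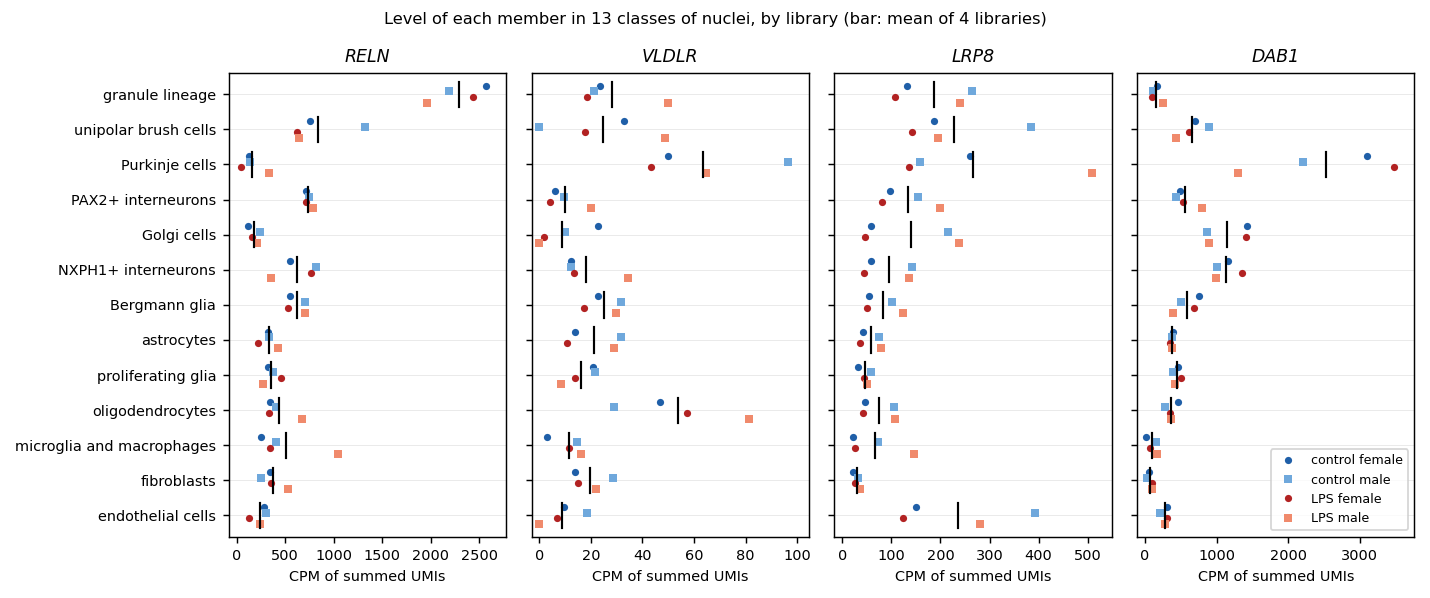
CPM of RELN, VLDLR, LRP8 and DAB1 (horizontal axes, 1 scale per gene) in 13 classes of nuclei, with 1 point per library and a bar at the mean of the 4 libraries. RELN is highest in the granule lineage (1967 to 2570 CPM) and DAB1 in Purkinje cells (1299 to 3481 CPM), while VLDLR and LRP8 spread over several classes.

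RELN, the ligand, was detected above all in the granule lineage, the excitatory neurons that make up most of the cerebellum. Summed over the 22272 granule lineage nuclei, its level was 2570 CPM in the control female, 2192 in the control male, 2434 in the LPS female and 1967 in the LPS male, a mean of 2291 ± 267 CPM (SD, n = 4 libraries). Every other class was lower in each of the 4 libraries. The nearest class was unipolar brush cells (836 ± 333 CPM), excitatory interneurons of the granular layer, and the ratio of the granule lineage to them lay between 1.65 and 3.94. The ratio to PAX2+ interneurons, immature inhibitory neurons at 739 ± 32.8 CPM, lay between 2.51 and 3.61. The granule lineage held 75.6% to 88.9% of all RELN UMIs in nuclei, while it supplied 59.9% to 68.2% of the UMIs of all genes. Purkinje cells, the output neurons of the cerebellar cortex, had the lowest mean of the 13 classes, at 132 CPM in the control female, 137 in the control male, 41.3 in the LPS female and 331 in the LPS male. Golgi cells (184 ± 58.1 CPM) overlapped them and were the higher of the pair in only 2 of 4 libraries.

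Free RNA from broken cells enters every droplet, and RELN was abundant in it. In barcodes ranked after the nuclei by UMI number, the level of RELN was 1090 CPM in the control female, 1513 in the control male, 649 in the LPS female and 1722 in the LPS male. These barcodes had median depths of 196 to 496 UMIs, the highest in the LPS male. Whether they include damaged nuclei was not tested. The granule lineage stood above these RELN levels in 4 of 4 libraries, by 1.14 to 3.75 times. PAX2+ interneurons and NXPH1+ interneurons (a second cluster with Golgi cell markers, named here by its leading gene) did so in 1 of 4 libraries each, the LPS female, and the other 10 classes in none. Microglia and macrophages, which are not a known source of reelin, had a RELN UMI in 18.0% to 64.4% of nuclei at median depths of 2054 to 3858 UMIs, against 77.3% to 91.2% of granule lineage nuclei at 1726 to 4352 UMIs. Nuclei with at least 1000 UMIs were also thinned to 1000 UMIs each. Those with fewer were left out, here and wherever thinned shares are given, so the nuclei before and after differ. The thinned shares were 8.20% to 35.7% and 65.7% to 77.0%. Free RNA was estimated to supply 0% to 33.1% of the UMIs of a class in a library. A class under the free RNA level of a gene can therefore still hold RNA of that gene of its own. After the free RNA estimate was subtracted, RELN was left at 401 to 720 CPM in PAX2+ interneurons, 273 to 511 CPM in Bergmann glia and 8.30 to 119 CPM in Purkinje cells.

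**Figure D2:**
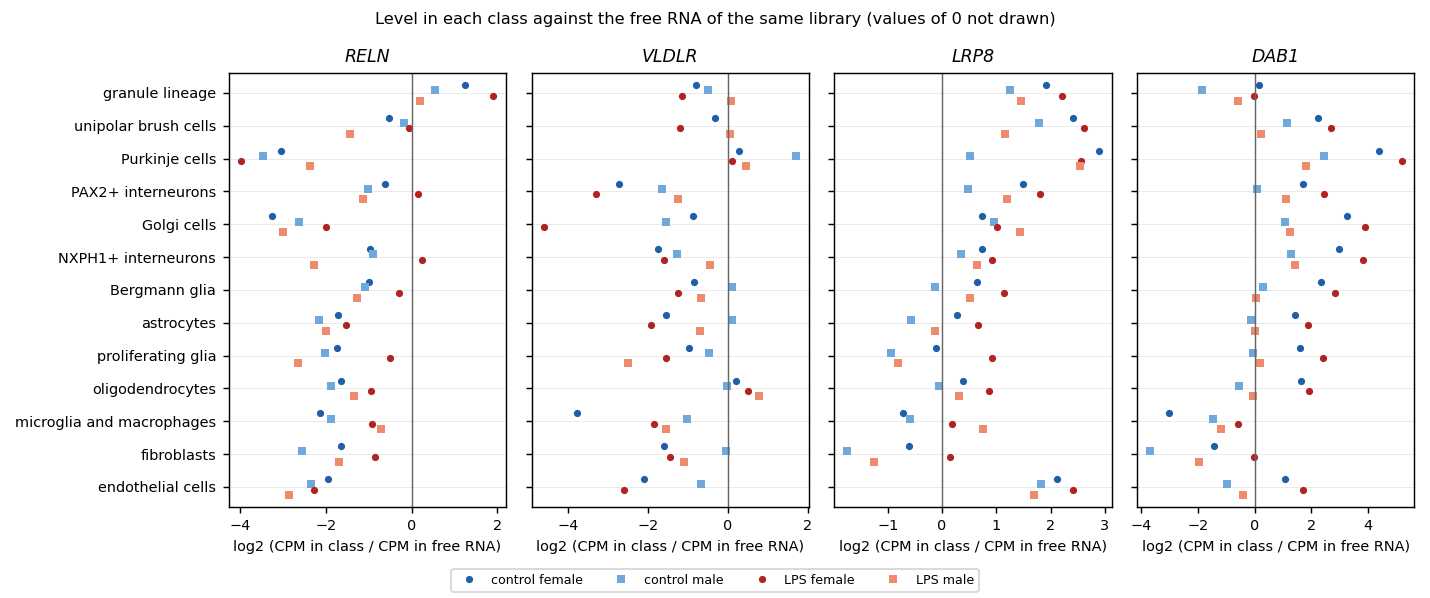
Log2 ratio of the CPM in each class to the CPM in free RNA of the same library (horizontal axis), for 13 classes and 4 libraries, with a line at equal levels. RELN lies to the right of the line in all 4 libraries only in the granule lineage, and in Purkinje cells VLDLR, LRP8 and DAB1 do so in all 4.

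VLDLR, the first of the receptors, was sparse, with 3033 UMIs over all nuclei and libraries. Its mean was highest in Purkinje cells, at 49.9 CPM in the control female, 96.7 in the control male, 43.4 in the LPS female and 64.6 in the LPS male, from 31, 38, 20 and 8 UMIs. Oligodendrocytes followed with 47.0, 28.9, 57.1 and 81.4 CPM in the same order of libraries, and Purkinje cells were the higher of the pair in only 2 of 4 libraries, so the order of these neighbours did not hold beyond the spread. The granule lineage, at 28.2 ± 14.6 CPM, was below Purkinje cells in each library, by 1.30 to 4.602 times. Purkinje cells were above free RNA in 4 of 4 libraries and oligodendrocytes in 3 of 4. The granule lineage was above it in 1 library, the LPS male, and 7 classes were above it in none. With the free RNA estimate subtracted, mean VLDLR went from 28.2 to 27.2 CPM in the granule lineage and from 25.26 to 22.15 CPM in Bergmann glia. In PAX2+ interneurons it went from 9.92 to 4.52 CPM and in microglia and macrophages from 11.3 to 4.93 CPM. A VLDLR UMI was found in 25% to 48% of Purkinje nuclei, whose median depths were 6725 to 23490 UMIs, and in 1.22% to 6.67% of microglia and macrophages at 2054 to 3858 UMIs. After thinning to 1000 UMIs per nucleus it was found in 0% to 14.55% and 0% to 1.64%. At the low end, Golgi cells, endothelial cells and PAX2+ interneurons had means of 8.60, 8.74 and 9.92 CPM with overlapping ranges, so none is named the lowest. Golgi cells, the inhibitory neurons of the granule layer, had 14 UMIs in the control female, 4 in the control male, 1 in the LPS female and 0 in 15 nuclei of the LPS male, where the exact Poisson 95% interval of a count of 0 reaches 29.2 CPM.

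LRP8, the other receptor, was detected in both neurons and vessels. In Purkinje cells its level was 259 CPM in the control female, 158 in the control male, 137 in the LPS female and 508 in the LPS male, a mean of 265.5 ± 170.5 CPM. Endothelial cells, which line the vessels, had 151, 392, 123 and 282 CPM in the same order. Unipolar brush cells, excitatory interneurons that share the rhombic lip origin of granule cells, had 187, 385, 141 and 195 CPM from 75 nuclei in all, and the granule lineage had 133, 264, 108 and 240 CPM. The ranges of these 4 classes overlapped, and the class with the highest level changed from library to library, so no order among them is given. At the other end fibroblasts had 29.5 ± 6.41 CPM, under free RNA in 3 of 4 libraries, and endothelial cells exceeded them in each library. LRP8 was above free RNA in 4 of 4 libraries in the granule lineage, Purkinje cells, endothelial cells, unipolar brush cells and all 3 interneuron classes. An LRP8 UMI was found in 48.15% to 55% of endothelial nuclei at median depths of 2224 to 5910, against 8.20% to 20% of microglia and macrophages at 2054 to 3858, and after thinning the shares were 15.9% to 36.8% and 2.47% to 4.76%. In Purkinje nuclei, which were deeper, the share was 57.1% to 87.5% before and 13.04% to 43.8% after thinning.

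DAB1, the adaptor that receptor-bearing cells need to respond to reelin, was highest in Purkinje cells in each of the 4 libraries. Its level there was 3102 CPM in the control female, 2208 in the control male, 3481 in the LPS female and 1299 in the LPS male, a mean of 2522 ± 974.6 CPM, with 1926, 868, 1603 and 161 UMIs behind the values. Purkinje nuclei made up 0.205% to 0.650% of the nuclei of a library. They held 2.26% to 19.6% of its DAB1 UMIs, while they supplied 0.563% to 1.95% of the UMIs of all genes. Golgi cells came next with 1431, 870, 1410 and 894 CPM, and Purkinje cells exceeded them in each library by 1.45 to 2.54 times. NXPH1+ interneurons had 1164, 1009, 1350 and 994 CPM, which did not differ from Golgi cells beyond the spread. Below these, in order of their means, followed unipolar brush cells (662 ± 193 CPM), Bergmann glia, the radial glia that granule cells migrate along (580 ± 169 CPM), PAX2+ interneurons (560 ± 163 CPM), proliferating glia (443 ± 46.9 CPM), astrocytes (374 ± 18.2 CPM) and oligodendrocytes (363 ± 74.4 CPM). The ranges of neighbours in this order overlapped, and in the LPS male PAX2+ interneurons (797 CPM) lay above unipolar brush cells (433 CPM). DAB1 was above free RNA in 2 of 4 libraries in oligodendrocytes and in 3 of 4 in astrocytes and proliferating glia. In unipolar brush cells, Bergmann glia and PAX2+ interneurons it was above in 4 of 4. By its mean the granule lineage was near the bottom at 155 ± 69.5 CPM, above only microglia and macrophages (97.9 ± 68.6 CPM) and fibroblasts (68.6 ± 30.9 CPM). This order did not hold in each library. Microglia and macrophages exceeded it in the control male (147 against 112 CPM), and fibroblasts were level with it in the LPS female (92.95 against 92.8 CPM). Purkinje cells exceeded the granule lineage by 5.24 times in the LPS male and by 18.7 to 37.5 times in the other 3 libraries. The granule lineage was above its free RNA in 1 of 4 libraries, the control female, and with free RNA subtracted the ratio was 6.55 in the LPS male, 35.4 in the control male and 19.0 and 38.6 in the female libraries. After thinning to 1000 UMIs per nucleus, a DAB1 UMI was found in 62.5% to 100% of Purkinje nuclei and in 1.23% to 11.9% of microglia and macrophages.

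A receptor and the adaptor were seen together in single Purkinje nuclei. A DAB1 UMI together with a UMI of at least 1 receptor was found in 26 of 32 nuclei of the control female (81.2%, exact 95% interval 63.6 to 92.8), 40 of 56 of the control male (71.4%, 57.8 to 82.7), 20 of 25 of the LPS female (80%, 59.3 to 93.2) and 12 of 16 of the LPS male (75%, 47.6 to 92.7). The intervals cover counting error only, and they overlap between all 4 libraries. Both receptors were seen in the same nucleus in 15 of 32, 15 of 56, 8 of 25 and 3 of 16. DAB1 with a receptor was not particular to Purkinje nuclei. In the same order of libraries it was found in 27 of 42, 43 of 86, 19 of 54 and 8 of 15 Golgi nuclei. In NXPH1+ interneurons it was found in 16 of 38, 25 of 71, 14 of 40 and 37 of 76, and in unipolar brush cells in 13 of 21, 3 of 8, 4 of 9 and 17 of 37. In microglia and macrophages, where DAB1 did not exceed free RNA in any library, the adaptor with a receptor was found in 0 of 82 (exact 95% interval 0 to 4.40%), 5 of 74, 3 of 61 and 8 of 45 nuclei in the same order. Purkinje nuclei were also deeper, so these shares were not set against each other by a test.

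The granule lineage was split again into 9 clusters, which were ordered by stage markers from dividing precursors to mature neurons. Clusters 8 and 7 held mitotic and S phase precursors (349 and 1537 nuclei), cluster 4 committing cells (2487), clusters 2 and 5 migrating cells (2630 and 2000), clusters 6 and 1 maturing cells (1921 and 3161) and cluster 3 mature cells (2604, of which 1448 came from the LPS male). Cluster 0, the largest with 5583 nuclei and led by COL6A6, TRPC7 and HCRTR2, matched no stage list and was placed between the maturing and the mature cells. Its mean log2 differences were -0.033 for the maturing list and 0.099 for the mature list, so the stage markers do not fix its place.

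**Figure D3:**
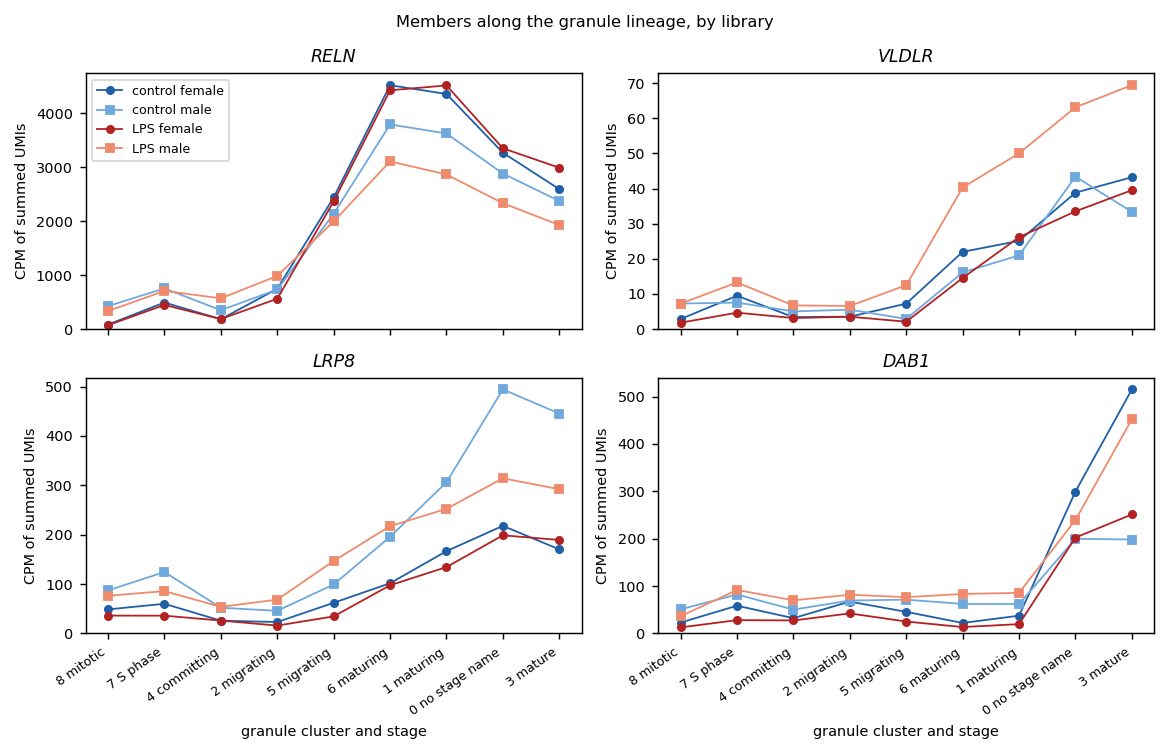
CPM of each gene (vertical axes from 0) in the 9 granule clusters in stage order, with 1 line per library. The place of cluster 0, which matched no stage list, is not fixed by the stage markers. RELN climbs between the clusters of migrating cells and peaks in the maturing clusters 6 and 1, the receptors are highest in clusters 0 and 3, and DAB1 is low up to cluster 1.

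RELN was low in dividing and committing cells and was highest in maturing cells. Its mean was 228 CPM in cluster 8, 599 in cluster 7, 321 in cluster 4 and 756 in cluster 2, and in these 4 clusters every library was under the level of its own free RNA. With the free RNA estimate subtracted, the means were 135, 496, 152 and 676 CPM in the same order. Unsubtracted, RELN was at 2234 ± 204 CPM in cluster 5, above free RNA and above cluster 2 in all 4 libraries. In cluster 6 it was 4519 CPM in the control female, 3792 in the control male, 4425 in the LPS female and 3107 in the LPS male. The other maturing cluster, cluster 1, had 4357, 3625, 4515 and 2865 CPM, and its values overlapped those of cluster 6. RELN then stood at 2958 ± 465 CPM in cluster 0 and at 2471 ± 443 CPM in cluster 3, and cluster 6 exceeded cluster 3 by 1.48 to 1.74 times in all 4 libraries. The highest value was in cluster 6 in both control libraries and the LPS male, and in cluster 1 in the LPS female.

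Both receptors had their highest means in clusters 0 and 3. LRP8 was at 62.0 CPM in the dividing cluster 8 and 76.4 in cluster 7, and lower in cluster 4 (39.3 ± 15.6 CPM), where 3 of 4 libraries were under free RNA. It was highest in cluster 0, at 218 CPM in the control female, 494 in the control male, 199 in the LPS female and 314 in the LPS male. In between, its means were 38.2 CPM in cluster 2, 85.5 in cluster 5, 153 in cluster 6 and 215 in cluster 1, and the steps from cluster 5 to 6, from 6 to 1 and from 1 to 0 went up in 4 of 4 libraries. VLDLR rested on 9, 6, 7 and 5 UMIs in cluster 4 (4.57 ± 1.66 CPM), under the free RNA of each library, so no ratio to it is given. In cluster 0 it was at 38.8 CPM in the control female, 43.4 in the control male, 33.5 in the LPS female and 63.1 in the LPS male, above free RNA in both male libraries and below it in both female libraries. It was at 46.4 ± 15.9 CPM in cluster 3 and at 23.2 ± 11.8 CPM in cluster 6. Mature-stage levels of LRP8 (274 ± 126 CPM in cluster 3) were below those of cluster 0 in each library.

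DAB1 appeared late in the granule lineage. In the 7 clusters up to cluster 1 its means lay between 30.6 and 65.0 CPM, and in each library the values were under the free RNA level of 95.1 to 409 CPM. DAB1 means in these clusters lay between 9.52 and 34.3 CPM with the free RNA estimate subtracted. In cluster 0 it was at 300 CPM in the control female, 200 in the control male, 202 in the LPS female and 239 in the LPS male. In cluster 3 it was at 515, 198, 251 and 452 CPM, above cluster 1 in each library. In both male libraries, where free RNA held 409 and 372 CPM of DAB1, only cluster 3 of the LPS male stood above the free RNA. With the free RNA estimate subtracted, the means over libraries were 225 CPM in cluster 0 and 363 CPM in cluster 3. A DAB1 UMI with a receptor UMI was found in 43.5% of cluster 0 nuclei in the control female, 17.05% in the control male, 27.8% in the LPS female and 29.9% in the LPS male, and in cluster 3 in 51.3%, 16.4%, 30.6% and 39.1%.

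Oligodendrocytes, the myelinating glia, had DAB1 and VLDLR at levels that differed between their 6 clusters. Over the whole class, DAB1 was above free RNA in 2 of 4 libraries. Its mean there was 363 CPM before and 364 CPM after the free RNA estimate was subtracted. DAB1 was at 604 CPM in precursors that express PDGFRA (cluster 0, 180 nuclei), 497 in cycling cells (cluster 5, 36 nuclei), 439 in cells with GPR17 and BCAS1 (cluster 3, 60 nuclei), 179 in cells with BCAS1 and MBP (cluster 2, 66 nuclei) and 113 in cells with MAL and MOG (cluster 1, 85 nuclei), as means of the 4 libraries. Precursors had 669 CPM in the control female, 390 in the control male, 585 in the LPS female and 773 in the LPS male, and the MAL and MOG cells 132, 64.2, 169 and 86.5 in the same order, so the values of these clusters did not overlap. Against the free RNA of the same library, DAB1 stood at 0.95 to 6.15 times in the precursors. It stood at 0.33 to 1.80 times in the BCAS1 and MBP cells and at 0.16 to 1.78 times in the MAL and MOG cells. The part of free RNA in the lower DAB1 values was not tested. VLDLR was at 29.97 CPM in precursors, 39.25 in cycling cells, 45.8 in the GPR17 and BCAS1 cells, 92.2 in the BCAS1 and MBP cells and 69.8 in the MAL and MOG cells. The precursor and the BCAS1 and MBP values rest on 20 and 48 UMIs, and the latter were higher in 4 of 4 libraries. Cluster 4 (38 nuclei, led by SLCO2B1 and IGFBP7) had DAB1 at 388 CPM and the lowest VLDLR, 18.0 CPM from 10 UMIs, with RELN at 1754 CPM. What it holds was not tested, and none of these levels carries a test.

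**Figure D4:**
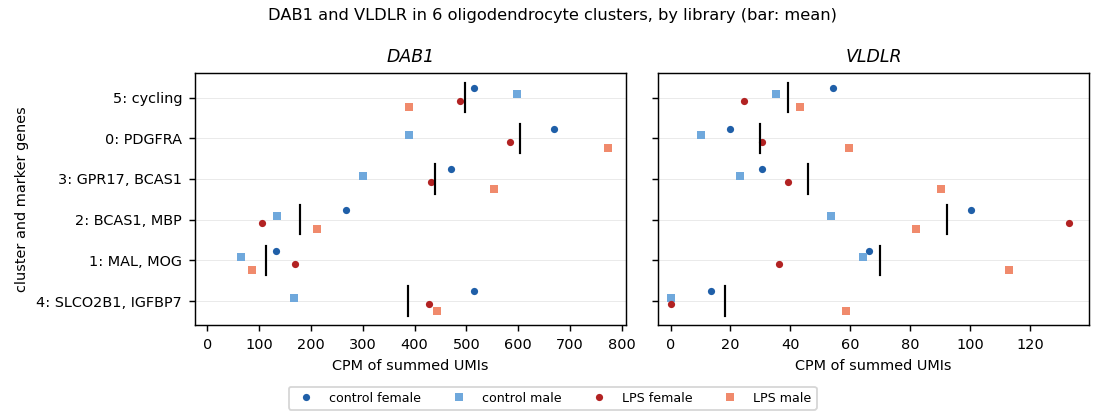
CPM of DAB1 and VLDLR (horizontal axes) in 6 oligodendrocyte clusters, from cycling cells and PDGFRA-positive precursors at the top to MAL and MOG cells, with cluster 4 below them, and with 1 point per library and a bar at the mean. DAB1 means lie between 113 and 604 CPM and VLDLR means between 18.0 and 92.2 CPM.

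Levels of LRP8 also split the libraries by the sex of the fetus, as did the UMIs per nucleus and the mitochondrial share, while the other 3 members did so in fewer classes. LRP8 was higher in both male libraries than in both female libraries in 12 of 13 classes, all but Purkinje cells, and in 9 of 9 granule clusters. Across all genes tested, such a split occurred in 35.7% of gene and class pairs and in 38.2% of gene and granule cluster pairs. Free RNA moved the same way, with LRP8 at 34.9 and 23.1 CPM in the female and 111 and 87.3 CPM in the male libraries. DAB1 was lower in both male than in both female libraries in 6 of 13 classes, among them Purkinje cells, Golgi cells, Bergmann glia and NXPH1+ interneurons, where 23.7% of all pairs did so, and higher in 1 class. In the granule clusters it went the other way, higher in both male libraries in 7 of 9 and lower in 0. RELN was lower in both male libraries in 5 of 9 granule clusters, the 5 where it was most abundant, against 26.2% of all pairs. It was higher in both in 3 of 9 clusters and in 7 of 13 classes, and lower in 1 class. VLDLR was higher in both male libraries in 6 of 13 classes and 4 of 9 clusters, lower in 0, and mixed in the others. Where it was higher, microglia and macrophages and clusters 2, 4 and 8 had not passed the filter on low counts. The shares of all pairs, 35.7% and 38.2%, cover only pairs that passed it. Whether free RNA, depth or mitochondrial share plays a part in these splits was not tested.

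LPS was compared with control by summing UMIs per class and library and fitting all genes with edgeR's quasi-likelihood test, with 2 libraries per group. No member was called in any class or granule cluster where a call needed both an adjusted p under 0.1 and a log2 fold change beyond 0.25 in either direction. Of 46 tests of a member in a class, 0 were called and 1 had an unadjusted p under 0.05, beside 0% called and 0.642% under 0.05 of all 102235 tests of a gene in a class. In the granule clusters, 0 of 33 member tests were called and 0 had an unadjusted p under 0.05, beside 0% and 0.336% of all 89915 tests. DESeq2 called 0 member tests, and 5 and 4 tests over all genes. With the libraries paired by sex as a covariate, edgeR called 25 and 26 tests over all genes and 0 member tests, of which 3 of 46 in classes and 1 of 33 in granule clusters had an unadjusted p under 0.05, beside 3.15% and 3.44% of all tests in that fit. The 4 member tests were DAB1 in fibroblasts, RELN in microglia and macrophages, VLDLR in oligodendrocytes and LRP8 in cluster 7. The groups did not overlap in 7 of the 46 member tests (19.0% of all tests) and in 1 of the 33 (16.6%). With 2 libraries per group the exact permutation test of a single value cannot go below a p of 0.333, and the absence of a call does not show that levels were equal. The 2 libraries of a group are 2 fetuses of different sex, so their spread holds the split described above. Both LPS fetuses were also older than both controls, and the controls had no injection. LPS therefore cannot be told apart from gestational age or from the injection itself.

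**Figure D5:**
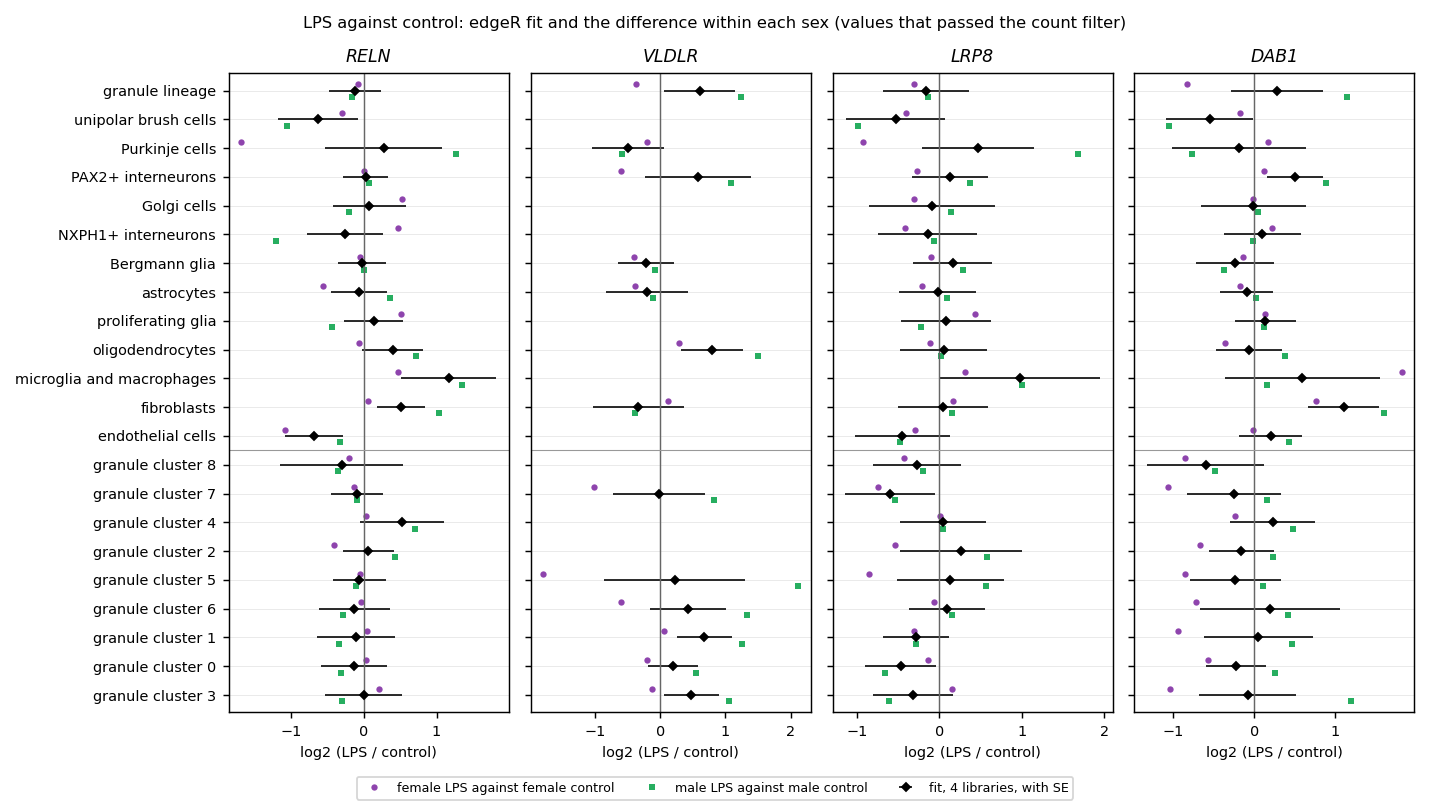
Log2 ratio of LPS to control (horizontal axes) for each gene in 13 classes and 9 granule clusters, as the edgeR fit over 4 libraries with its standard error (diamonds) and as the difference within the female pair (circles) and the male pair (squares). No value was called, and in DAB1 of granule cluster 3 and LRP8 of Purkinje cells the female and male pairs fall on opposite sides of 0.

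RELN was not called in the granule lineage or in any of its clusters, where the standard errors were larger than the fold changes. In the granule lineage the log2 fold change of LPS against control was -0.12 (SE 0.36, adjusted p = 0.9999, edgeR), with both LPS libraries lower than the control of the same sex. In the maturing clusters 6 and 1 it was -0.13 (SE 0.49) and -0.11 (SE 0.54), in cluster 5 -0.06 (SE 0.37), in cluster 0 -0.13 (SE 0.45) and in cluster 3 -0.00098 (SE 0.53). In the clusters with less RELN it was 0.52 (SE 0.58) in cluster 4, 0.06 (SE 0.35) in cluster 2, -0.09 (SE 0.36) in cluster 7 and -0.30 (SE 0.85) in cluster 8, so 2 of 9 clusters were above 0. Over the 9 clusters the log2 ratio of LPS to control in the male pair ran from -0.35 in cluster 8 to 0.71 in cluster 4. Of the 13 classes 7 were above 0. The most negative value was in endothelial cells, at -0.68 (SE 0.40, unadjusted p = 0.128), where both LPS libraries (133 and 238 CPM) lay below both controls (282 and 298.5 CPM). The groups also did not overlap in unipolar brush cells (618 and 639 against 759 and 1326 CPM; -0.63, SE 0.54) and in fibroblasts (358 and 527.5 against 345 and 257 CPM; 0.51, SE 0.33), and the values of these 3 classes were all under the free RNA level of their library. The largest positive value of any class was in microglia and macrophages, at 1.17 (SE 0.65, unadjusted p = 0.123), from 248 CPM in the control female, 410 in the control male, 342 in the LPS female and 1042 in the LPS male. The summed level of 13 granule lineage markers in the same nuclei was 789, 1456, 956 and 4330 CPM in that order, so it was highest in the library where RELN was highest. The part of granule RNA in these RELN values was not tested. After the free RNA estimate was subtracted, RELN was at 139 and 181.5 CPM in control and at 320 and 695 CPM in LPS in the same order, and the log2 fold change was 1.71 (SE 0.55, unadjusted p = 0.0182, adjusted p = 0.9997, edgeR). Without the LPS male library it was 0.10, and with classes set by marker score it was 0.04. Without the LPS female library, which leaves 1 LPS library, RELN was called at 1.75 (SE 0.56, adjusted p = 0.0622, edgeR), as were 304 of the 5774 genes in that fit (5.26%).

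Neither receptor was called. Among the groups of nuclei that passed the filter on low counts, VLDLR had its highest fold change in oligodendrocytes. It was above 0 in 3 of the 7 classes and 5 of the 6 granule clusters that passed. NXPH1+ interneurons (4 and 3 UMIs in control, 4 and 15 in LPS) and Golgi cells (14 and 4 in control, 1 and 0 in LPS) did not pass it. In the granule lineage the log2 fold change was 0.60 (SE 0.55). There the LPS female lay below the control female (18.3 against 23.6 CPM) and the LPS male above the control male (49.8 against 21.0 CPM). Cluster 3, with the highest mean of VLDLR, made up 33.5% of LPS male granule nuclei, against 5.82% to 7.04% in the other libraries. The lineage value therefore mixes composition and level. In oligodendrocytes both LPS libraries (57.1 and 81.4 CPM) lay above both control libraries (47.0 and 28.9 CPM), with a log2 fold change of 0.79 (SE 0.48, unadjusted p = 0.129, adjusted p = 1, edgeR), from 31 and 64 UMIs against 40 and 9. The LPS male library had 158 of the 465 oligodendrocyte nuclei, of which 58 were among the 85 MAL and MOG cells. In granule cluster 1 both LPS libraries were again above both controls (26.2 and 50.03 against 25.1 and 21.0 CPM; log2 fold change 0.68, SE 0.43). In cluster 0 the value was 0.20 (SE 0.38), in cluster 3 0.48 (SE 0.43) and in cluster 6 0.43 (SE 0.59), and in these 3 clusters the female LPS library lay below the female control. In Purkinje cells the log2 fold change of VLDLR was -0.50 (SE 0.55).

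LRP8 was lower in LPS than in control within both sexes in the granule lineage, where its log2 fold change was -0.16 (SE 0.52), and in clusters 0 (-0.46, SE 0.43), 1 (-0.28, SE 0.40), 7 (-0.59, SE 0.54) and 8 (-0.27, SE 0.53). In cluster 3 it was -0.32 (SE 0.48). It was above 0 in the other 4 of 9 clusters, at 0.27 (SE 0.74) in cluster 2, 0.14 (SE 0.65) in cluster 5, 0.10 (SE 0.46) in cluster 6 and 0.04 (SE 0.52) in cluster 4, and in 7 of 13 classes. In endothelial cells it was -0.45 (SE 0.57) and in unipolar brush cells -0.53 (SE 0.60), while microglia and macrophages had the highest value, 0.98 (SE 0.97), PAX2+ interneurons had 0.13 (SE 0.47) and Golgi cells -0.09 (SE 0.76). In Purkinje cells it was 0.47 (SE 0.68), with a lower value in the LPS female than in the control female (137 against 259 CPM) and a higher one in the LPS male than in the control male (508 against 158 CPM). The 13 granule lineage markers summed to 1517 CPM in the Purkinje nuclei of the LPS male, against 277 CPM in the control female, 427 in the control male and 274 in the LPS female, and their part in the Purkinje values was not tested. The differences were smaller than or close to their standard errors.

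DAB1 in Purkinje cells had a log2 fold change of -0.19 (SE 0.83), with the LPS female above and the LPS male below the control of the same sex, and the LPS male value came from 16 nuclei, those with the highest granule markers. In the granule lineage it was 0.28 (SE 0.56), with the LPS female below and the LPS male above the control of the same sex, and in granule clusters 0 and 3 it was -0.23 (SE 0.37) and -0.08 (SE 0.59). Cluster 3, with the highest mean of DAB1, made up 33.5% of LPS male granule nuclei, against 5.82% to 7.04% in the other libraries. The lineage value therefore mixes composition and level. The log2 fold change of DAB1 was above 0 in 7 of 13 classes and 3 of 9 clusters. In PAX2+ interneurons both LPS libraries (525 and 797 CPM) lay above both controls (485 and 430 CPM; 0.50, SE 0.34), and in unipolar brush cells both lay below (618 and 433 against 699 and 898 CPM; -0.55, SE 0.54). The single member test with an unadjusted p under 0.05 was DAB1 in fibroblasts, cells of the meninges, at a log2 fold change of 1.10 (SE 0.44, unadjusted p = 0.0369, adjusted p = 1, edgeR). Its levels there were 54.7 CPM in the control female, 31.5 in the control male, 92.95 in the LPS female and 95.25 in the LPS male, from 36, 22, 69 and 13 UMIs, all under the free RNA level of the same library, and 1.85% of all genes tested in fibroblasts had an unadjusted p under 0.05. Over all nuclei of a library the log2 fold changes were -0.04 (SE 0.33) for RELN, 0.45 (SE 0.51) for VLDLR, -0.10 (SE 0.49) for LRP8 and 0.08 (SE 0.30) for DAB1. These values over all nuclei also mix composition and level.

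The pathway around these 4 genes was followed with a list of 46 other genes, of which 45 had a row. None of the 14 to 44 that passed the filter on low counts was called in any of the 13 classes or 9 granule clusters. An unadjusted p under 0.05 (edgeR) was seen for 1 gene each in NXPH1+ interneurons, astrocytes, fibroblasts and clusters 0, 1, 4 and 7. Of all tests of a gene, 0.642% in the classes and 0.336% in the clusters were under 0.05. The LPS and control libraries of the pathway genes did not overlap in 49 of 406 class tests (12.1%, beside 19.0% of all genes) and in 40 of 328 cluster tests (12.2%, beside 16.6%), which bears on each such case named here. In the granule lineage 19 were above and 25 below 0 among 44, with a median log2 fold change of -0.02 beside 0.01 over all genes, and in Purkinje cells 17 were above and 11 below 0, with a median of 0.07 beside -0.02. Among the other ligands of the receptors, CLU (clusterin, an extracellular chaperone) was above both controls in both LPS libraries of the granule lineage, at 23.0 and 48.2 against 17.8 and 9.13 CPM (log2 fold change 1.37, SE 0.58, unadjusted p = 0.0659), and in cluster 0 at 26.3 and 46.2 against 17.5 and 12.2 CPM (1.22, SE 0.45, unadjusted p = 0.0398). CLU also lay above without overlap, with a log2 fold change over 1, in clusters 1, 6 and 7, in PAX2+ interneurons and in oligodendrocytes. In each of these groups, as in the granule lineage and cluster 0, its highest value was in the LPS male. The pathway genes were not set against free RNA, and a part of free RNA in the CLU values was not tested. SPON1, a secreted matrix protein, was below both controls in cluster 1 (39.4 and 27.1 against 83.4 and 66.1 CPM; -1.16, SE 0.41, unadjusted p = 0.0353) and above them in NXPH1+ interneurons (114 and 115 against 57.9 and 28.4 CPM; 1.34, SE 0.51, unadjusted p = 0.0301). APOE, an apolipoprotein, was above both controls in Golgi cells (75.4 and 39.6 against 33.9 and 25.3 CPM) and in Purkinje cells (86.9 and 32.3 against 29.0 and 22.9 CPM). These values came from 45 and 5 against 21 and 10 UMIs in Golgi cells and from 40 and 4 against 18 and 9 UMIs in Purkinje cells.

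NRP1, a co-receptor listed with the related receptors, had LPS values below both control values, and log2 fold changes under -1, in 4 groups of nuclei. It was at 22.1 and 12.7 CPM in LPS against 57.2 and 45.2 CPM in control astrocytes (log2 fold change -1.54, SE 0.49, unadjusted p = 0.0173), at 8.86 and 12.1 against 28.8 and 32.4 CPM in S phase precursors of cluster 7 (-1.55, SE 0.45, unadjusted p = 0.0142), at 4.92 and 9.40 against 23.4 and 18.4 CPM in cluster 4 (-1.63, SE 0.55, unadjusted p = 0.0278), and at 30.7 and 18.4 against 71.6 and 36.3 CPM in cluster 2 (-1.12, SE 0.52, unadjusted p = 0.0821). The LPS values of NRP1 rested on 29 and 10 UMIs in astrocytes and on 19 and 10 in cluster 7. In cluster 4 they rested on 11 and 7 UMIs and in cluster 2 on 70 and 14. NRP1 did not meet the rule for naming in the other classes and clusters, and its mean was highest in microglia and macrophages (1142 CPM). MYLIP, a ubiquitin ligase that lowers lipoprotein receptors, was at 21.6 and 21.98 CPM in LPS against 4.56 and 2.87 CPM in control fibroblasts, from 16 and 3 against 3 and 2 UMIs (2.47, SE 0.86, unadjusted p = 0.0218). ADAMTS3, a protease that cuts reelin, was at 22.1 and 21.6 against 41.1 and 51.5 CPM in oligodendrocytes (-1.06, SE 0.51, unadjusted p = 0.0625). The lowest adjusted p of these genes was 0.9997 (edgeR). The other genes that met the rule for naming did so in 1 group of nuclei each: SOCS6 in astrocytes (1.11), CFL1 in proliferating glia (1.36), CRK in unipolar brush cells (1.21), PIK3R1 in cluster 1 (1.032), LYN in cluster 5 (1.02) and LIMK1 in cluster 8 (-1.22), as log2 fold changes of LPS against control with unadjusted p between 0.0504 and 0.209.

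The pathway genes differed in where they were highest. Of the 45, 10 had their highest mean in endothelial cells (22.2%, beside 14.7% of the 12653 genes with a mean of at least 10 CPM in a class), 8 in microglia and macrophages (17.8%, beside 16.9%) and 6 in Purkinje cells (13.3%, beside 9.56%). The class with the highest mean was also the highest in each of the 4 libraries for 13 of the 45. Among these were CDH2 in endothelial cells (1205 CPM), LYN in microglia and macrophages (787.5 ± 332 CPM), THBS1 in Purkinje cells (102 ± 73.1 CPM), SPON1 and CLU in astrocytes (704.5 and 217 CPM) and FYN, the Src family kinase best known for acting on DAB1, in oligodendrocytes (1068 CPM). APOE was highest in microglia and macrophages in 3 of 4 libraries (584 ± 535 CPM), and PAFAH1B1, which encodes LIS1, in Purkinje cells in 2 of 4 (483 ± 147 CPM).

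By the pattern of levels over the 13 classes, RELN was most like UNC13C, NEUROD1, KCNJ3, CERKL and TPRN, with Pearson r of 0.941, 0.924, 0.916, 0.909 and 0.907 on log2(CPM + 1), all highest in the granule lineage. DAB1 was most like HAGHL (0.926), CPT1B (0.908), FAM169A (0.901), NDRG4 (0.901) and a gene without a symbol (0.894), all highest in Purkinje cells. LRP8 was most like ASNS (0.903), KIAA0513 (0.882), HECW2 (0.872), ARFGEF3 (0.856) and STAU2 (0.85), and VLDLR, the sparsest of the 4, like GLB1L2 (0.815), PRKAB2 (0.804), IL1RAPL1 (0.796), BCAR1 (0.781) and CNTN2 (0.78). Among the members, the highest r was between LRP8 and DAB1 (0.52) and the lowest between RELN and DAB1 (-0.361). These are descriptions over 13 points that share 4 libraries, drawn from 12653 genes.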

How the data were processed

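Nuclei from frozen left cerebellar hemispheres of 4 rhesus macaque fetuses were captured with the 10x Genomics 3' v3.1 chemistry, 1 library per fetus. The deposited values are raw UMI counts per gene and barcode, which the authors made with Cell Ranger on the Mmul_8.0.1 genome with introns included. The protocol text and the submitters' processing notes differ on the Cell Ranger version (the notes list version 4), and every barcode of the 10x list is in the files, unfiltered.

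A barcode was kept as a nucleus with 500 or more genes and no more than 5% of its UMIs from mitochondrial genes. The 4 libraries were integrated with Seurat 5.3.0 anchors (2000 variable genes, 30 principal components, resolution 0.5), with the 4 members and the other pathway genes left out, and clusters were named from marker lists. Doublets were scored with Scrublet in scanpy 1.11.5; its own threshold marked 0% of nuclei in both male libraries, so the median threshold of the female libraries was used there, and removing doublets was an alternative. UMIs were summed per class and library. Free RNA was measured in barcodes ranked from 3 to 4 times the number of nuclei. Their median depth was 300 UMIs in the control female, 196 in the control male, 226 in the LPS female and 496 in the LPS male. In the LPS male they held up to 442 genes, near the limit of 500 for a nucleus. Whether they include damaged nuclei was not tested. LPS and control were compared with edgeR 4.0.16 (quasi-likelihood test, TMM, low-count filter, Benjamini-Hochberg adjustment over all genes of a fit, called at adjusted p under 0.1 and absolute log2 fold change over 0.25) and with DESeq2 1.42.0 as an alternative. Tested on simulated data, the fits recovered most changed genes at a low spread between libraries and almost none at the spread estimated here, so a count of 0 calls does not show that genes did not change. Intervals of shares are exact (Clopper-Pearson), those of CPM are exact Poisson intervals, and both cover counting error only. The 2 libraries of a group differ far beyond sampling noise (chi-square per degree of freedom 194 for control and 185.5 for LPS). Libraries held 34282015 to 61665690 UMIs in all.

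The 4 members were reported whatever their values. Other pathway genes were named where called, where the unadjusted p was under 0.05, or where the groups did not overlap with an absolute log2 fold change over 1. Likeness lists the 5 genes with the highest Pearson r among genes with at least 10 CPM in a class. The members and lists were chosen with earlier results of these data known. Alternatives were DESeq2, no TMM, no low-count filter, sex as a covariate, each library left out, at least 1000 genes per nucleus, doublets removed, free RNA subtracted, classes by marker score, and nuclei thinned to 1000 UMIs. Nuclei under 1000 UMIs were left out of the thinned shares. No sequences or coordinates are given, since no reference of this build was used here.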

Additional observations from a re-analysis of the deposited data

Results flagged for a closer look

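In several groups of nuclei the LPS library lay on opposite sides of its control in the female and in the male pair, and the difference between the pairs was not tested, since each holds 1 library per treatment. For RELN the log2 ratio of LPS to control was 0.036 in females and -0.31 in males in granule cluster 0, 0.051 and -0.34 in cluster 1, and 0.21 and -0.30 in cluster 3. For VLDLR over all nuclei it was -0.38 in females and 0.94 in males. For LRP8 in Purkinje cells it was -0.92 in females and 1.69 in males. DAB1 stood at 0.17 in females and -0.77 in males in Purkinje cells, at -0.57 and 0.26 in granule cluster 0, at -1.04 and 1.19 in granule cluster 3, and at -0.22 and 0.37 over all nuclei. Values over all nuclei mix composition and level.

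Barcodes outside the nuclei used held a large part of the member UMIs in the LPS male library, at 62.76% for RELN, 63.59% for VLDLR, 40.84% for LRP8 and 64.06% for DAB1. In the 2 control libraries the shares were 16.81% and 38.94% for RELN, 39.22% and 45.09% for VLDLR, 11.41% and 25.96% for LRP8, and 15.15% and 52.19% for DAB1. In the LPS female library they were 11.34%, 40.22%, 8.97% and 13.04%.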

How the results depend on the processing

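The 2 libraries per group limit every comparison of LPS with control, and VLDLR levels rest on sparse counts. In these comparisons LPS also cannot be told apart from gestational age or from the injection itself. Over all genes, 0 tests were called per class, against 5 with DESeq2, 111 without the low-count filter, 25 with sex as a covariate, and 118 to 403 when 1 library was left out. Per granule cluster the counts were 0, against 4, 59, 26 and 37 to 101. Calls of members per class ranged from 0 to 1 with 1 library left out, the 1 being RELN in microglia and macrophages without the LPS female library. A lone library left in a group is assumed to vary like the other group.

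The direction of several fold changes turned when 1 library was left out, and the cause was not tested. For RELN the log2 fold change then ranged from -0.29 to 0.0945 in the granule lineage, -0.51 to 0.16 in cluster 0, -0.58 to 0.23 in cluster 1, -0.44 to 0.34 in cluster 3, -0.25 to 0.14 in cluster 5, -0.50 to 0.14 in cluster 6 and -0.24 to 0.21 over all nuclei. For VLDLR it ranged from -0.25 to 0.52 in cluster 0, -0.37 to 0.96 in cluster 6 and -0.39 to 0.97 over all nuclei. For LRP8 it ranged from -1.34 to 0.95 in Golgi cells, -0.58 to 0.60 in PAX2+ interneurons, -0.63 to 1.11 in Purkinje cells, -1.004 to 0.32 in endothelial cells, -0.86 to 0.34 in the granule lineage, -0.87 to 0.10 in cluster 0, -0.72 to 0.0792 in cluster 1, -0.79 to 0.40 in cluster 3 and -0.79 to 0.37 over all nuclei. For DAB1 it ranged from -1.19 to 0.38 in Purkinje cells, -0.56 to 0.24 in cluster 0, -0.66 to 0.92 in cluster 3 and -0.12 to 0.33 over all nuclei. The sign also turned for RELN in cluster 3 without the low-count filter (0.0206), for LRP8 in PAX2+ interneurons with classes by marker score (-0.14) and for DAB1 in cluster 3 with sex as a covariate (0.0743).

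Thinned to 1000 UMIs, the mean share of nuclei with a UMI was 71.5% for RELN in the granule lineage, 5.20% for VLDLR and 25.3% for LRP8 in Purkinje cells. RELN was highest in the granule lineage and DAB1 in Purkinje cells with at least 1000 genes per nucleus, without doublets, with free RNA subtracted and with classes by marker score, while VLDLR was highest in oligodendrocytes with the last of these. With sex as a covariate, VLDLR in oligodendrocytes had a log2 fold change of 0.78 (SE 0.39, unadjusted p = 0.0454, adjusted p = 0.903, edgeR) and was not called. The labels give no replicate numbers, and the libraries were paired by sex, in the fit with sex as a covariate, which called 0 members, and in the ratios within each sex, which carry no test.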
